A study of Mus musculus with 2 samples.

Results

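MAFK binding regions at CpG-rich promoters of protein-coding genes were described in ES-E14, a mouse embryonic stem cell line, from chromatin immunoprecipitation followed by sequencing (ChIP-seq). A region belonged to the set when its summit, the position of strongest enrichment, lay within 1000 bp of the transcription start site (TSS) of a protein-coding transcript and the sequence within 500 bp of the summit was CpG-rich. CpG-rich meant a GC share of at least 0.5 and a ratio of observed to expected CpG dinucleotides of at least 0.6. The rule was met by 747 of the 16836 regions that the authors' optimal list holds on chromosomes 1 to 19 and X, or 4.44% of them. The remaining regions were 867 at promoters whose sequence was not CpG-rich, called CpG-poor promoter regions here, and 15222 elsewhere. Near the thresholds, the member of lowest GC content had 50.05% and the nearest region outside on that measure alone had 49.95%, while the nearest CpG ratios inside and outside were 0.601 and 0.599. The farthest member summit was 999 bp from its TSS, and the nearest summit left out on distance alone was at 1023 bp.

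The experiment has 1 group of 2 biological replicates of ES-E14 cells with no treatment named, a male line of strain 129/Ola, immunoprecipitated with an antibody against MAFK. Both replicates have the same source label, so their spread may be technical in part, and no second condition or control sample was analysed here. The files hold regions and no reads, so the read depth is unknown and it limits which regions could be listed. They hold no expression values either, so the stem cell identity was not checked against marker genes.

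MAFK is a small MAF protein, a basic leucine zipper factor without a transactivation domain of its own. It binds DNA as a homodimer or as a heterodimer with CNC and BACH proteins such as NRF2, NFE2L1 and BACH1. The palindromic MAF recognition element (MARE) is the site of the homodimer, and the antioxidant response element (ARE) joins an AP-1-like part, contacted by the partner, to the GC part contacted by the small MAF. CpG-rich promoters, most of which overlap CpG islands, serve housekeeping genes and many developmental regulators, and their usual elements include ETS, NRF1 and GC box sites. NRF1 here is nuclear respiratory factor 1, which is not the NFE2L1 protein that shares the short name.

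The elements at the strongest members are shown first, because the results below turn on which form of the MAF site a promoter carries. Each line gives 30 bases of the GRCm38 (mm10) reference, 5′ to 3′ on the stated strand, with the ARE core or the composite site in capitals. The ARE core was searched as TGACNNNGC or TGAGNNNGC and the composite site, an AP-1 part joined to a MAF part, as TGACTCAGCA or TGAGTCAGCA.
Snrpc, chr17:27839907-27839936, minus strand: tccaaaacccTGAGTCAGCAgttcctacgc
Arrdc3, chr13:80886293-80886322, plus strand: ctcgcctcaaTGAGACTGCtgagctggcac
Pla2g6, chr15:79328204-79328233, minus strand: ctgagaagtgcTGAGTAAGCcgaggtgagt
Txnrd1, chr10:82859104-82859133, minus strand: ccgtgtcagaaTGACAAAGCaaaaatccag
Blmh, chr11:76945670-76945699, plus strand: ccgatggcgcTGACTCAGCAacgcgagggg
Prdx1, chr4:116685456-116685485, minus strand: cctacgggggaTGACTCAGCgctttccctg
Srsf2, chr11:116853256-116853285, minus strand: ccccaccgcagTGACTGCGCgctttccgcc
Gclm, chr3:122245642-122245671, minus strand: ctggaagacaaTGACTAAGCagaaacctca
Srxn1, chr2:152105469-152105498, plus strand: aaattcacccTGAGTCAGCggccgggcgcg
Cox20, chr1:178318237-178318266, plus strand: aaaggcggcaTGACTCTGCacaatgacagg
Ccdc40, chr11:119228638-119228667, plus strand: ggctttctgcTGACTCTGCaggatctcgcc

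Of these 11 promoters, Snrpc and Blmh carried the composite site. Prdx1 and Srxn1 had the same AP-1 and GC parts without the last base of the composite site, and the others had ARE cores that depart from the AP-1 form at 1 or more bases. In 6 further strong members no MAF-type element was found, and the 30 bases around their best match to the T-MARE palindrome are given instead, with the matching bases in capitals. At Rtel1 an AP-1 element lies outside the bases shown, since a palindrome match had to lie whole within the window.
Alg2, chr4:47474436-47474465, plus strand: aagaaaatgcCTGACTCAatttctcatgtg
Eif3d, chr15:77970836-77970865, plus strand: ccacttccTtCTtAGTCAGCggaaaaatgt
Pik3r1, chr13:101694766-101694795, plus strand: caaatattTGCTGAGctAGggattttggga
Rtel1, chr2:181319686-181319715, plus strand: cgcccgggTGCaaAGTagcggaccggaagg
Cltc, chr11:86757701-86757730, plus strand: ctacttttTctaGACTCAtCActttcccca
Gadd45g, chr13:51846032-51846061, plus strand: gagccgcgTGtgccGgCAGCAatctgctgg

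The 20 strongest members that overlapped both replicates' lists lay at promoters of genes of varied function. Signal values are the authors' own, deposited without a stated scale, and are used here for description and rank. The highest was at Snrpc, which encodes a protein of the U1 small nuclear ribonucleoprotein. Its pooled signal was 453.7, with 235.0 in replicate 1 and 218.3 in replicate 2, and 99.97% of the optimal list lay below it. Arrdc3, an arrestin-domain gene, followed with a pooled signal of 349.2 (157.7 and 187.7 in replicates 1 and 2). Pla2g6, a calcium-independent phospholipase A2, had 340.0 (153.2 and 183.5), with its summit 2 bp from the TSS. These 3 values were well separated from the member median of 21.1, and each was high in both replicates.

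Of the 20 regions, 5 were at redox genes or at Keap1. Txnrd1, the cytosolic thioredoxin reductase, had a pooled signal of 330.1, with 171.9 in replicate 1 and 158.9 in replicate 2. Prdx1, a peroxiredoxin, had 297.8 (141.7 and 154.2). Srxn1, the sulfiredoxin that repairs over-oxidised peroxiredoxins, had 175.5 (83.2 and 91.4), and Gclm, the modifier subunit of glutamate-cysteine ligase, had 181.0 (86.1 and 92.7). Keap1, the adaptor that targets NRF2 for degradation, had 150.7 (68.9 and 83.6). All 5 summits lay within 85 bp upstream of the TSS, and each window held an ARE core.

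Genes of other functions were interleaved with these by signal. Blmh, a cysteine protease, had a pooled signal of 325.7 (154.6 and 174.5 in replicates 1 and 2). Srsf2, a splicing factor, had 202.0 (90.3 and 111.0), and its summit was also within 1000 bp of a TSS of Mfsd11. In both, replicate 2 had the higher value. Alg2, a mannosyltransferase of N-glycan assembly, had 182.2 (83.6 and 95.9), with Sec61b as its neighbour within 1000 bp. Eif3d, a subunit of a translation initiation factor, had 176.4 (82.3 and 96.8), and Cox20, an assembly factor of cytochrome c oxidase, had 171.1 (85.0 and 87.8).

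The last of the 20, apart from Keap1, were Pik3r1, Rtel1, Ccdc40, Cltc, Gadd45g and Grb10, with pooled signals from 169.1 down to 150.3. Pik3r1 encodes a regulatory subunit of phosphoinositide 3-kinase, Rtel1 a helicase that protects telomeres, Ccdc40 a protein needed to assemble motile cilia, and Cltc the clathrin heavy chain. Gadd45g is a stress-responsive growth arrest gene and Grb10 an imprinted adaptor of growth factor receptors. Over all 20, the signal ranged from 63.7 to 235.0 in replicate 1 and from 72.0 to 218.3 in replicate 2, and replicate 1 was the higher in 4. A MAF-type element, meaning an ARE core or a T-MARE or C-MARE palindrome with up to 2 mismatches within 50 bp of the summit, was present in 13 of the 20. Most of the summits, 17, were upstream of the TSS.

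The set as a whole was weaker and less often seen in both replicates than the other MAFK regions. The median signal of the 747 members was 21.1 (quartiles 15.2 and 36.6, range 3.85 to 453.7), against 25.9 at CpG-poor promoters and 28.3 elsewhere. Of the members, 169 (22.6%, 95% Wilson interval 19.8 to 25.8) overlapped both replicates' thresholded lists, against 35.4% of the whole optimal list. The share was 34.1% for CpG-poor promoter regions and 36.1% for other regions, with odds ratios of 0.564 (95% interval 0.452 to 0.704, p = 3.73e-07, two-sided Fisher's exact test) and 0.517 (0.434 to 0.616, p = 8.36e-15). Replicate 1's list overlapped 29.3% of the members and replicate 2's list 42.0%, and 383 members (51.3%) were in neither. Over the whole optimal list the same shares were 44.4%, 53.0% and 38.1%. These p-values compare lists of regions, which are not replicates of a condition, and the intervals cover counting error only.

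By rank, 125 members (16.7%) were among the strongest regions of the list, beside the 25% that this class holds by its definition. The odds ratios were 0.666 against CpG-poor promoters (0.519 to 0.854, p = 0.00150) and 0.587 against other regions (0.483 to 0.714, p = 2.21e-08, both two-sided Fisher's exact tests). Within each replicate's own list the same comparison gave 0.844 and 0.890 against CpG-poor promoters and 0.836 and 0.886 against other regions, with p between 0.282 and 0.517. The lower rank of the members was thus called in the pooled list and in neither replicate's own thresholded list. The replicate lists held 233 such regions of 7748 in replicate 1 and 354 of 9541 in replicate 2, or 3.36% ± 0.497 (SD, n = 2).

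A total of 625 members had a signal value in both replicates' relaxed lists, which also contain background. The median signal was 11.3 in replicate 1 and 13.3 in replicate 2, and replicate 1 was the higher in 229 members (36.6%). Among regions in both relaxed lists, the medians were 12.3 and 16.0 at CpG-poor promoters and 14.3 and 15.2 in other regions. The members' median was the lowest in each replicate, a difference that was not tested. The median ratio of replicate 2 to replicate 1 was 1.19, against 1.24 at CpG-poor promoters and 1.05 in other regions. The rank correlation between the replicates across members was 0.626, given as a description of regions from 2 lists that were processed separately. Members with and without an element overlapped over most of the range.

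**Figure D1:**
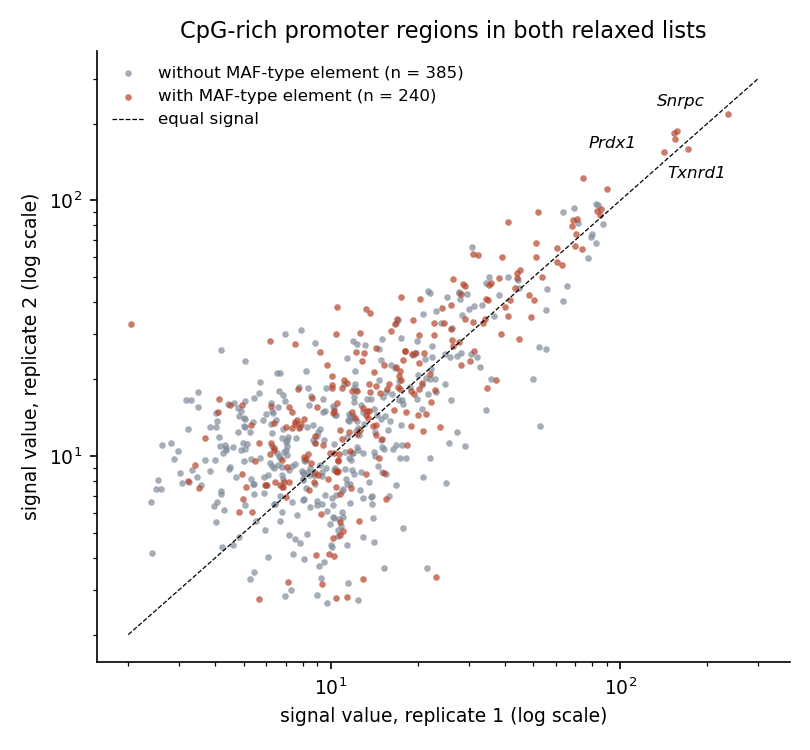
Signal values of the 625 CpG-rich promoter regions present in both relaxed lists, replicate 1 against replicate 2 on log axes, coloured by whether a MAF-type element lies within 50 bp of the summit. The replicates are close at the strongest promoters such as Snrpc, Txnrd1 and Prdx1 and spread around the dashed line of equal signal at weak ones (rank correlation 0.626).

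MAF-type elements were more frequent under the member summits than at promoters of the same sequence class without MAFK. The comparison set was the TSS windows of 9764 protein-coding genes with a CpG-rich TSS and no optimal summit within 1000 bp of any TSS of the gene. A MAF-type element was found within 50 bp in 261 of 747 members (34.9%, 31.6 to 38.4) and in 1272 of the unbound promoters (13.0%, 12.4 to 13.7), beside 65.7% of all regions of the optimal list. The odds ratio was 3.59 (3.05 to 4.21, p = 9.57e-48, two-sided Fisher's exact test). With the unbound promoters sampled at the same distances from the TSS as the member summits it was 4.50, and in windows of 500 bp to either side of the TSS in both sets it was 1.46 (1.23 to 1.74). It was 5.78 on replicate 1's list alone and 5.004 on replicate 2's, 6.97 for members in both lists and 7.36 for those in the strongest 50% of regions.

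The strict forms of the site separated bound from unbound promoters most. Elements were searched on both strands, and the families overlap, since the composite site contains the AP-1 and ARE core letters. The composite site occurred in 31 members (4.15%, 2.94 to 5.83) and in 0 of 9764 unbound promoters, which allows a share of up to 0.0307%. The members' share of 4.15% was 135-fold this limit. That fold leaves out the counting error of the members' share, so it is not a lower bound. The T-MARE palindrome, TGCTGACTCAGCA or TGCTGAGTCAGCA with up to 2 mismatches, was in 7.90% of members and 0.133% of unbound promoters. The AP-1 element, TGACTCA or TGAGTCA, was in 12.3% and 0.522%, the MAF core TGCTGA in 23.4% and 3.82%, and the looser ARE core in 33.6% and 12.9%. The odds ratios of these 4 were 64.3, 26.8, 7.70 and 3.43, with adjusted p of 3.48e-43 or less (two-sided Fisher's exact tests with Benjamini-Hochberg adjustment over 15 families). The size of these ratios depended on the background. With windows 1000 bp from the same summits, the odds ratios of the T-MARE, AP-1, MAF core and ARE core were 21.3, 13.0, 4.22 and 5.79, and the composite site was in 31 of 747 member windows and 1 of 1494 flanking windows (64.6). In windows of 500 bp to either side of the TSS they were 5.57, 2.46, 1.64 and 1.46, and the composite site was in 26 of 763 bound and 12 of 9764 unbound genes (28.7). C-MARE, a palindrome with up to 2 mismatches allowed, was in 4 members and 18 unbound promoters and did not pass (adjusted p = 0.0767, same Fisher's exact test).

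A shuffled control sequence, GTTCAG, was in 3.75% of members and 2.41% of unbound promoters (odds ratio 1.58, adjusted p = 0.0388, same Fisher's exact test), which sets the size of difference that a sequence with no known role showed here. Its odds ratio was 1.09 with position-matched unbound promoters. The ARE core, MAF core, AP-1 and T-MARE ratios exceeded it in both comparisons.

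Elements of the promoters themselves showed no stable direction. With windows on the TSS of unbound genes, 6 of 8 promoter families were lower at the member summits. They were the GC box, NRF1, ETS, CCAAT box, YY1 and E-box families. The GC box, GGGGCGGGG, was in 4.02% of members and 12.6% of unbound promoters, NRF1, with up to 1 mismatch, in 3.35% and 8.07%, and ETS, CCGGAAGT, in 3.21% and 5.58%. These ratios turned with the background, since with unbound promoters sampled at the summits' distances 1 family was lower (the GC box, odds ratio 0.583) and 1 higher (ETS, 1.84), and against windows 1000 bp from the same summits 6 were higher. The YY1 element was in 0 of 747 members, which allows a share of up to 0.402%, and in 1.24% of unbound promoters. CRE, TGACGTCA, and the BANP-type element were in 10 and 2 members and did not pass, the E-box CACGTG was in 3.08% of members and 4.75% of unbound promoters, and the CCAAT box in 2.54% and 5.58%.

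Compared with CpG-poor promoter regions, members had fewer MAF sites. A MAF-type element was in 34.9% of members and 54.7% of CpG-poor promoter regions (odds ratio 0.445, 0.364 to 0.545), and in 67.9% of other regions. The windows searched lie within the sequence whose GC and CpG content set the classes. This difference is therefore not independent of the rule and is given as a description. The composite site was in 4574 of the 15222 other regions, 17.2% of CpG-poor promoter regions and 4.15% of members. Of the promoter families, ETS was in 3.21% of members and 0.807% of CpG-poor promoter regions, NRF1 in 3.35% and 0.577%, the GC box in 4.02% and 1.38%, and CRE in 10 members and 1 region. The CCAAT box was in 2.54% and 2.08%, the E-box in 3.08% and 2.19%, YY1 in 0 members and 1 region, and the BANP-type element in 2 members and 0 regions. Most of these elements hold a CpG and the rule divided promoters by CpG and GC content, so the shares are a description with no test. Within the members, the MAF-type share was 29.4% at 50 to 55% GC, 31.1% at 55 to 60%, 41.6% at 60 to 65% and 46.5% at 65% or more. The MAF core share was 22.5%, 25.4%, 24.1% and 19.2% in the same order. The part of GC and CpG content in the lower share of MAF sites was not tested.

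**Figure D2:**
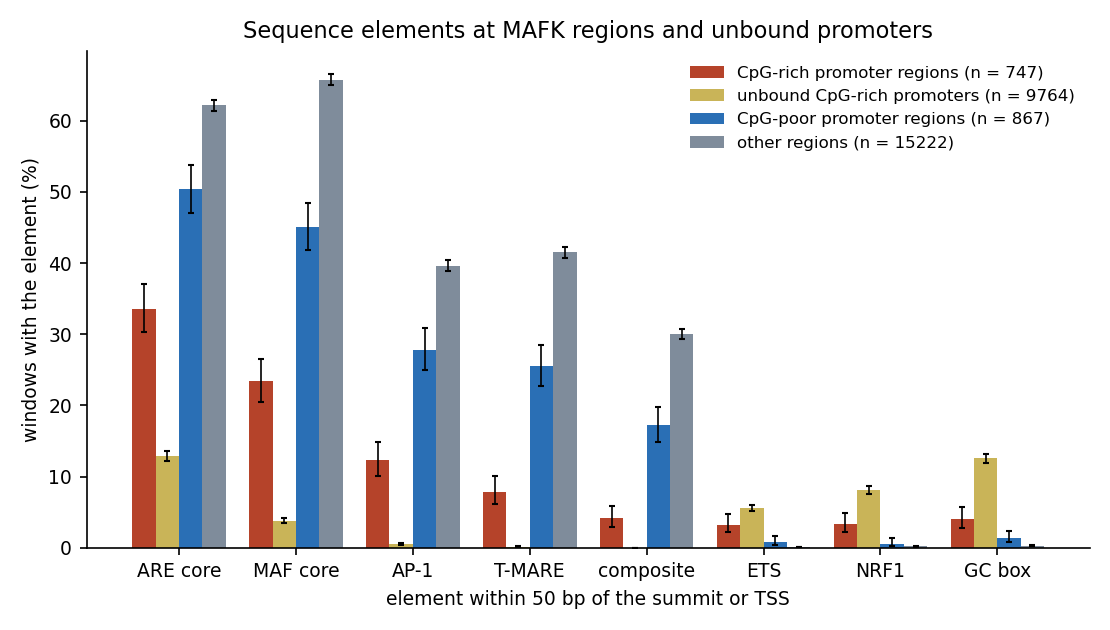
Share of windows of 50 bp to either side with each element in the 747 members, 9764 unbound CpG-rich promoters, 867 CpG-poor promoter regions and 15222 other regions, with 95% Wilson intervals. The 5 MAF and AP-1 families at the left are higher in members than in unbound promoters and lower than in the remaining MAFK regions, while ETS, NRF1 and the GC box at the right are rare in MAFK regions away from CpG-rich promoters; their order against unbound promoters depends on the background, as given in the text.

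The wording of the ARE core also differed between the sets. TGACTCAGC, the core with the AP-1 letters, was in 43 members (5.76%), 27.8% of other regions and 0.0410% of unbound promoters, and TGAGTCAGC was in 35 members. The next most frequent cores in members were TGACGCAGC and TGACTCGGC, in 11 each, TGACTCTGC in 10 and TGACACAGC in 8. A CpG stood within 32.5% of the ARE cores of members, 13.7% at CpG-poor promoters, 4.60% in other regions and 61.3% in unbound promoters. The AP-1 letters TCA followed the first 4 bases in 27.0%, 46.4%, 57.4% and 0.371% of them. Members thus lay between unbound promoters and the remaining regions on both measures, given as a description without a test. The rule divided promoters by CpG and GC content, so the order on the CpG measure is not independent of the rule.

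The whole T-MARE palindrome was never matched without a mismatch in the members. The best match had 1 mismatch in 14 members, 2 in 45 and 3 in 106, and 22.1% had at most 3. That share was 47.2% at CpG-poor promoters, 64.7% in other regions and 2.14% in unbound promoters. Where a composite site lay within 300 bp of a member summit, in 34 members, the median distance to the summit was 15.5 bp and 73.5% were within 25 bp.

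In a search without chosen motifs, AP-1 and MAF letters led the higher sequences. Of 32611 sequences of 8 bp that occurred, 102 (0.313%) were more frequent at members than at unbound promoters and 88 (0.27%) less frequent, at an adjusted p under 0.01 (two-sided Fisher's exact tests with Benjamini-Hochberg adjustment). The 2 of smallest p were CTGAGTCA, in 8.43% of members and 0.236% of unbound promoters, and CTGACTCA, in 6.69% and 0.143%. GACTCAGC was in 7.23% and 0.307%, GAGTCAGC in 6.83% and 0.246%, AGTCAGCA in 4.82% and 0.133%, ACTCAGCA in 4.55% and 0.123%, and CTGCTGAC in 3.88% and 0.297%. Among the 102 higher sequences, 50 shared at least 5 letters with the AP-1 element or the MAF core, 22 others held a run of 5 A, and 3 of the rest held a CpG. The share of each kind among all 32611 sequences was not counted, and overlapping sequences can come from the same site. With the unbound promoters sampled at the summits' distances, 283 sequences were higher, among them 84 of the 102. That comparison used a Mantel-Haenszel test in which each unbound promoter entered every distance bin, so its calls are not on the same footing. Against windows 1000 bp from the same summits 18 of the 102 remained higher, and in windows of 500 bp around the TSS 12. On replicate 1's list alone 29 of the 102 passed and on replicate 2's list alone 39.

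The less frequent sequences were of another kind, and 86 of the 88 held a CpG. A sequence could be called lower only where it was common in the unbound windows, and these were chosen for GC and CpG content. The share of CpG-holding sequences among all those tested was not counted. CCCGCCCC was in 5.49% of members and in 1853 of the 9764 unbound promoters, and CCCCGCCC in 7.36% of members and 19.7% of unbound promoters. With unbound promoters sampled at the summits' distances 2 of the 88 remained lower, and against windows 1000 bp from the same summits 9 of them turned higher. A run of 8 A was the remaining named sequence, in 64 members (8.57%) and 0.819% of unbound promoters, and it passed the same Fisher's exact test (adjusted p = 4.63e-32). Of those 64 summits, 36 lay in repeat-masked sequence, 6 had a MAF-type element and 18.8% overlapped both replicates' lists. Without members whose summit is repeat-masked, AAAAAAAA was in 4.06% of members (adjusted p = 2.47e-07, Fisher's exact test), and against windows 1000 bp away it did not pass (adjusted p = 0.491).

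Members with a MAF-type element were stronger and more often in both replicates' lists than members without. The median signal was 30.1 (quartiles 18.7 and 54.3) in the 261 with the element and 18.9 (14.2 and 28.5) in the 486 without. Of the first, 87 (33.3%) overlapped both lists, and of the second 82 (16.9%), with an odds ratio of 2.46 (1.74 to 3.50, p = 5.90e-07, two-sided Fisher's exact test). The strongest 25% of the list held 29.1% and 10.1% of them (odds ratio 3.66, 2.46 to 5.46, p = 1.38e-10, same Fisher's exact test). The 31 members with a composite site had a median signal of 43.0, and 54.8% overlapped both lists. Within the strongest 50% of regions the odds ratio for overlap was 1.03 (0.632 to 1.68, p = 1, Fisher's exact test).

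From the strongest to the weakest decile of the members by signal, the share with a MAF-type element went from 62.7% to 14.9%. The composite site was in 16.0% of the strongest decile and in 1 member of the weakest 4 deciles. Overlap with both replicates' lists went from 100% in the strongest decile to 76.0%, 33.3% and 9.33% in the following 3 and was 1.35% in the weakest.

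**Figure D3:**
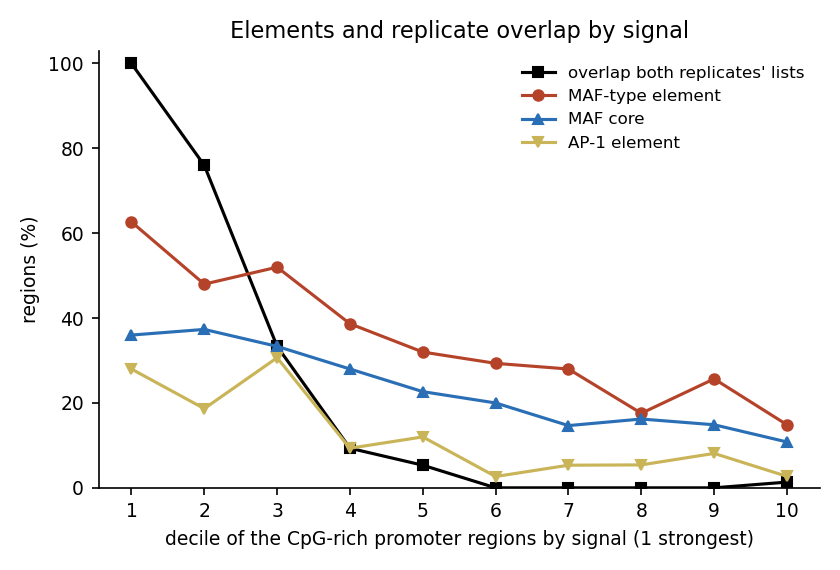
Share of members with a MAF-type element, a MAF core or an AP-1 element within 50 bp of the summit, and share overlapping both replicates' thresholded lists, by decile of the members ranked by signal (1 strongest, 74 or 75 regions each). Overlap falls from 100% to 9.33% within 4 deciles, and the MAF-type share falls from 62.7% to 14.9% over all 10.

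In 381 members (51.0%) neither a MAF-type element nor a MAF core nor an AP-1 element was found within 50 bp of the summit. Their median signal was 18.3 and 14.2% overlapped both replicates' lists, but some were strong. The strongest of the 486 without a MAF-type element were Alg2, with an AP-1 element, Eif3d, with an ETS element and a T-MARE match at 3 mismatches, and Pik3r1, with a MAF core. Rtel1 followed with a pooled signal of 161.7 (69.3 and 93.4 in replicates 1 and 2), and its window held an AP-1 element. At Cltc, with 156.2 (63.7 and 90.5), Gadd45g, with 151.6 (79.4 and 72.0), and Grb10, with 150.3 (71.3 and 81.5), none of the element families searched was found. The summit at Cltc lay in repeat-masked sequence. Dynll1, a dynein light chain gene, had 149.9 (79.7 and 73.6) and a CCAAT box. All 8 of these summits were upstream of the TSS and were in both replicates' lists.

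Of the 8 promoter families, 0 passed between members with and without a MAF-type element in two-sided Fisher's exact tests with Benjamini-Hochberg adjustment, and the smallest adjusted p was 0.470, for the GC box and the E-box. The GC box was in 5.75% with and 3.09% without a MAF-type element (odds ratio 1.91, 0.921 to 3.98), and the E-box in 4.60% and 2.26% (2.08, 0.905 to 4.78). No family passed at an unadjusted p under 0.05 either, where the smallest was 0.0819. Within the strongest 50% of regions 1 family passed (adjusted p = 0.0151, same Fisher's exact test).

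More member summits lay upstream than downstream of the TSS. No such share is given for CpG-poor promoter regions, so it is not shown to be particular to members. Of 746 summits not exactly on a TSS, 472 (63.3%, 59.8 to 66.7) were upstream, more than an equal share (p = 4.02e-13, two-sided exact binomial test over summits). The median position was 55 bp upstream, with quartiles at -206.5 and 69.5 bp, where negative positions are upstream. Within 100 bp of the TSS there were 282 summits (37.8%), and within 300 bp 546 (73.1%). By annotation, 361 summits were outside protein-coding transcripts, 179 in untranslated exons, 173 in introns and 34 in coding sequence. Upstream positions made up 56.9% of summits with a MAF-type element and 66.7% of those without, a difference that was not tested. The composite site was in 0.709% of members within 100 bp of the TSS, 6.46% at 100 to 300 bp and 5.94% beyond.

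**Figure D4:**
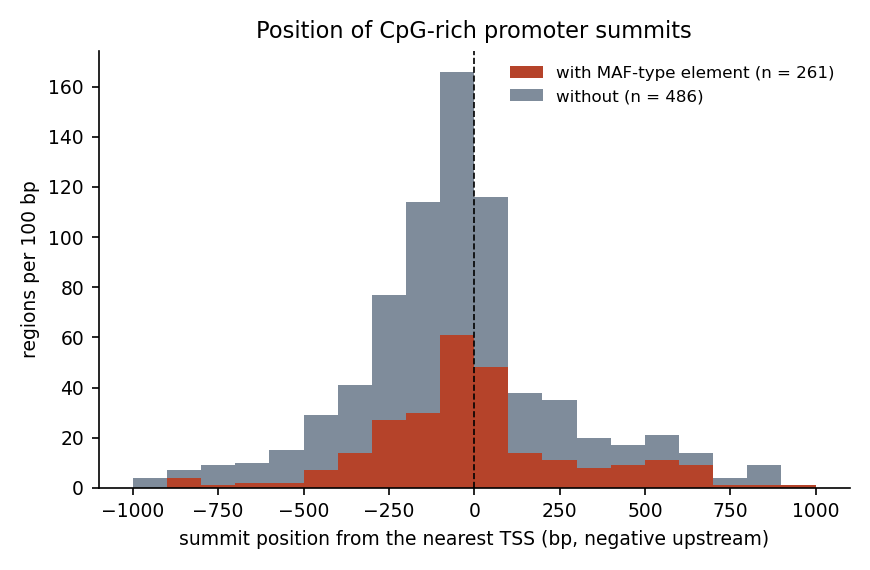
Positions of the 747 member summits from the nearest protein-coding TSS in bins of 100 bp, negative upstream, stacked by presence of a MAF-type element (261 with, 486 without). The highest bin is the 100 bp upstream of the TSS, and 546 summits lie within 300 bp.

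Of 10942 protein-coding genes with a CpG-rich TSS, 763 (6.97%) had a member region at a CpG-rich promoter. Most members, 641, were within 1000 bp of the TSSs of a single gene and 106 of several genes, so a summit between divergent genes is counted at both. A gene with an opposite-strand TSS of another gene within 1000 bp upstream was met at 145 of the 763 bound genes and 1458 of 9764 unbound genes (14.9%), with an odds ratio of 1.34 (1.11 to 1.62, p = 0.00335, two-sided Fisher's exact test). This call did not hold within either replicate's list (1.30 with p = 0.0563 and 1.35 with p = 0.0730, Fisher's exact tests). Both genes of a divergent pair can be counted for the same summit, so the genes are not independent units. The interval and p-values do not allow for that.

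Cytoprotective genes were bound at a higher share than these 6.97%. Of 18 antioxidant and NRF2-type genes with a CpG-rich TSS, 8 had a member region (44.4%, 24.6 to 66.3), 7 with a MAF-type element and 6 in both replicates' lists. Txnrd1, Prdx1, Gclm, Srxn1 and Keap1 are described above. The others, named after their values were seen, were the glutathione reductase Gsr (76.6, with 28.7 and 47.2 in replicates 1 and 2), the malic enzyme Me1 (35.8, with 17.3 and 20.5) and the pentose phosphate enzyme Pgd (8.76, with 2.42 and 4.19). Pgd was in neither replicate's thresholded list and had no MAF-type element. This list was assembled with the known biology of MAFK and earlier results of these data in view, so its count is no independent evidence of direction. The other gene lists below were also chosen with earlier results of these data known, and the same limit holds for their counts.

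Of the 7 genes of the small MAF and CNC group with a CpG-rich TSS, Keap1, Mafg and Maff had a member region. Keap1, the NRF2 adaptor, is neither a small MAF nor a CNC protein and is also counted in the antioxidant list. The share over all genes with a CpG-rich TSS was 6.97%. Mafg encodes another small MAF protein, and its region had a pooled signal of 135.5 (70.1 in replicate 1 and 66.2 in replicate 2) with a composite site, 604 bp downstream of the TSS. Maff, a small MAF gene as well, had 40.7 (20.1 and 20.7) and no MAF-type element. Keap1, Mafg and Maff were each in both replicates' lists. In addition, 1 gene of the group without a CpG-rich TSS had a member region, and it is not counted among the 7. A member region lay 686 bp downstream of a TSS of Nfe2l2, the gene of NRF2, with a MAF-type element. Its pooled signal was 22.4 (15.3 and 8.55 in replicates 1 and 2), and it did not overlap both replicates' lists.

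Proteasome subunit genes had a member region at 15 of 30 promoters with a CpG-rich TSS (interval 33.2 to 66.8%), beside 6.97% over all such genes. NFE2L1, a CNC partner of small MAF proteins, is known for driving these genes when the proteasome is impaired. Psmc5, an ATPase subunit of the regulatory particle, had a pooled signal of 90.2 (48.5 in replicate 1 and 42.8 in replicate 2). Psmb3, a core subunit, had 70.6 (28.0 and 41.1). Psmd1 and Psmd7, non-ATPase subunits of the regulatory particle, had 54.1 (22.8 and 29.7) and 39.6 (14.4 and 26.4). Signals over the 15 ran from 6.30 to 90.2, with a median of 33.5 beside 21.1 for all members. A MAF-type element was found at 9 of the genes, counting any of their member regions, since at Psmd12 only the weaker region had one. Taking the strongest region of each gene, 12 of the 15 summits were downstream of the TSS. Among all members, 274 of the 746 summits not exactly on a TSS were downstream. The summit counted for Psmc2, 610 bp upstream, lay nearer to a TSS of Dnajc2. Overlap with both replicates' lists was seen for 3 of the 15, and the same rule on a single replicate's list gave 6 in replicate 1 and 9 in replicate 2. The antioxidant list, with 18 genes, had 6 and 7 on the single lists and 6 in both, so the proteasome share was the higher in the pooled list and the lower in these.

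Autophagy genes had member regions at 5 of 23 promoters (21.7%, 9.66 to 41.9), beside 6.97% over all genes with a CpG-rich TSS. Atg2a, a lipid transfer protein of autophagosome growth, had 40.6 (29.2 and 10.9 in replicates 1 and 2), and Gabarapl1, an ATG8 protein, had 26.7 with a composite site (16.9 in replicate 1 and no entry in replicate 2's relaxed list). Nbr1, a selective autophagy receptor, had 24.4 (14.6 and 9.15), and Ulk2, an initiating kinase, 20.1 (8.84 and 11.9). Only the region at Nbr1 overlapped both replicates' lists. With replicate 2's list alone, 1 gene of this group was bound, and with replicate 1's list 3.

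Heme and iron genes had 3 of 17 (17.6%, 6.19 to 41.0), beside 6.97% over all genes with a CpG-rich TSS. None of the 3 had a MAF-type element or was in both replicates' lists. The heme exporter Flvcr1 had 27.4 (12.0 and 16.3 in replicates 1 and 2), the transferrin receptor Tfrc 19.2 (8.10 and 6.78), and the biliverdin reductase Blvra 19.1 (4.03 and 14.8). Replicate 1's list held 0 of these genes and replicate 2's list 1.

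Genes of general cell functions were bound at shares whose intervals reached down to or near 6.97%. Cytosolic ribosomal protein genes had 7 of 48 (14.6%, 7.25 to 27.2), led by Rps20 with 36.8 (19.9 and 16.7), Rpl32 with 29.4 (18.3 and 9.79), Rpl30 with 20.3 (9.06 and 12.4) and Rps19 with 19.3 (11.1 in replicate 1, no entry in replicate 2). With replicate 1's or replicate 2's list alone this group had 3 and 2 genes. Spliceosome genes had 3 of 27 (11.1%, 3.85 to 28.1), namely Snrpc, Srsf2 and Prpf19, a ubiquitin ligase of the spliceosome, whose 29.5 came from 23.2 in replicate 1 and 3.37 in replicate 2. Cell cycle and DNA replication genes had 2 of 26 (7.69%, 2.14 to 24.1), the licensing factors Cdc6 with 21.8 (15.9 and 6.98) and Mcm4 with 16.8 (6.62 and 9.98). Oxidative phosphorylation had 2 of 33 (6.06%, 1.68 to 19.6), the complex I genes Ndufs7 with 79.4 (55.6 and 26.3) and Ndufa5 with 57.3 (24.7 and 33.0). Of these 4 intervals, that of the ribosomal list began above 6.97% and the others contained it.

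Few stem cell and developmental regulators had a member region. None of the 12 pluripotency genes with a CpG-rich TSS had a member region, which allows a share of up to 25% by a floor of 3 counts, so a share like that of all genes was within reach of this small list. Of 44 developmental transcription factor genes, 1 was bound (2.27%, 0.402 to 11.8). It was Neurog1, a proneural factor, with 56.7 (35.9 in replicate 1 and 19.97 in replicate 2), no MAF-type element and overlap with replicate 1's list only. The interval of the developmental list contained 6.97%, and no test was made between lists.

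**Figure D5:**
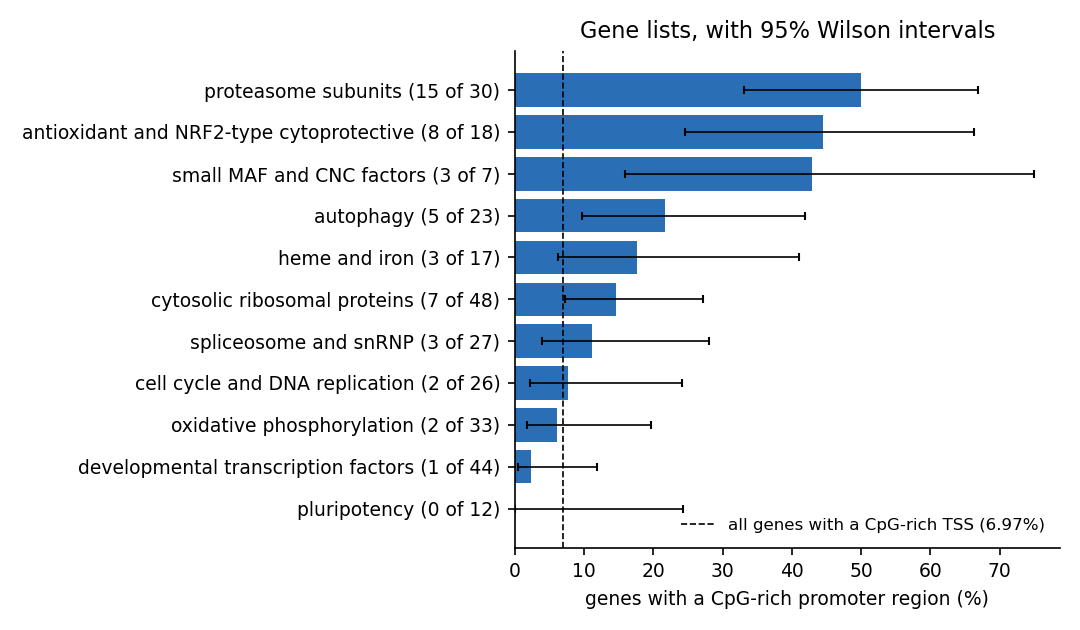
Share of genes with a CpG-rich TSS that have a member region, for the 11 gene lists, with 95% Wilson intervals and the share over all such genes (6.97%) as a dashed line. Proteasome, antioxidant and small MAF lists are at 15 of 30, 8 of 18 and 3 of 7 genes, and the intervals of the short lists are wide.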

How the data were processed

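MAFK ChIP-seq region lists of 2 replicates of ES-E14 cells were used as deposited on mm10. What aligner, peak caller and read filters were used is not given in the sources used here. The optimal, conservative and relaxed lists come from a first processing run and the replicates' thresholded lists from a second with other alignments, per the deposited README notes, so overlap between them crosses both runs. The authors deposited a signal value for each region, with no stated scale. They also deposited a scaled irreproducible discovery rate score and a −log10 q-value, which were read for the named regions only and chose nothing. The 29 mitochondrial or unplaced regions of the optimal list were left out. A fixed width of 296 bp was found in 91.0% of members.

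Sequence was read from GRCm38 (mm10) and TSSs from GENCODE M21. A match had to lie whole within 50 bp of the summit (101 bp). Unbound promoters were represented by the CpG-rich TSS used by most transcripts of the gene. Overlap meant at least 1 bp. Fisher's exact and binomial tests used SciPy 1.17.1 with Python 3.11.15 and NumPy 2.4.6. Promoters sampled at the summits' distances were compared by a Mantel-Haenszel test over bins of 100 bp, and each unbound promoter entered every bin. The test of 8 bp sequences was tested on simulated data.

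Named genes were the 20 strongest members in both replicates' lists, up to 4 genes of each list by signal, the 8 strongest without a MAF-type element and the 10 sequences of smallest p. Of the 20, 1 is not reported here. Members and the 11 gene lists were chosen with earlier results of these data known. The display of best T-MARE matches and the alternative without repeat-masked summits were chosen after seeing the data. The 17 alternatives are given in the closing section.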

Additional observations from a re-analysis of the deposited data

How the results depend on the processing

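The MAF-type odds ratio against unbound promoters kept its direction and passed in every alternative run for it, as did the upstream share. The MAF-type odds ratio against CpG-poor promoters, a description only, also kept its direction. Without 1 replicate at a time, the odds ratio for the strongest 25% was 0.844 to 0.890 against CpG-poor promoters and 0.836 to 0.886 against other regions, and among regions in both replicates' lists it was 0.796 and 0.936. None of these passed. In the strongest 50% of regions, the odds ratio for overlap with both lists by MAF-type element was 1.03, 1 promoter family differed by element, the higher and lower 8 bp sequences numbered 53 and 7, and the divergent odds ratio was 1.14. Without 1 replicate the higher sequences were 34 to 46, the lower 5 to 14 and the divergent odds ratio 1.30 to 1.35. Among regions in both lists these were 29, 1 and 1.41, and with a GC share of 0.55 and a CpG ratio of 0.65 they were 62, 27 and 1.17. Lower sequences were 53 with a TSS within 500 bp. Windows of 25 bp gave 44 and 16, and windows of 100 bp gave 149 lower. Flanking windows gave 13 lower, promoters sampled by distance 283 and 2, and windows of 500 bp around the TSS 14 and 0. The odds ratios that turned were ETS (12.4 with flanking windows, 1.84 by distance, 1.25 in TSS windows), NRF1 (25.8, 1.00 and 1.33), GC box (3.87 with flanking windows), CRE (20.3 and, by distance, 1.67), CCAAT box (3.87 and, in TSS windows, 1.32), E-box (2.23, 1.05 by distance, 1.02 in TSS windows), BANP-type (10.02 and, by distance, 1.09), YY1 (1.09 in TSS windows) and the shuffled control (0.541 to 1.82 without 1 replicate, 0.748 in both lists, 0.775 in the strongest 50%, 0.6004 with flanking windows). The cause of these changes was not tested, except that fewer regions enter when a replicate is left out or a list is restricted. Overlap with both lists has no value without a replicate. No paired analysis was possible because there is 1 group. Read depth is unknown, so its effect was not assessed.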

Other observations

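Of 789 genes with a member region at any TSS, 71 had 2 or more member regions. Of the 747 members, 683 were in replicate 1's relaxed list and 679 in replicate 2's, and 513 (68.7%) were in the conservative list, against 75.5% of CpG-poor promoter regions and 82.8% of other regions. Repeat-masked summits were 7.76% of members, 12.2% of CpG-poor promoter regions and 17.0% of other regions. Among the 21 named strong regions, Cox20 and Gadd45g had a member region in 6 of 8 alternative lists or rules, Snrpc, Txnrd1 and Rtel1 in 7, and the others in all 8.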
